A study of Mus musculus with 12 samples.

Results

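ADP-ribosylation is represented here by 7 genes followed in LT-HSCs, the long-term stem cells of blood formation, which sit in the bone marrow and can renew themselves for life. Parp9, Parp10, Parp12, Parp14 and Dtx3l were chosen by name as the 5 interferon-linked genes, and Parp1 and Parp2 as 2 family members outside the interferon response. All 7 were found among the 23472 genes of the table, and all 7 passed the filter on low counts with 13184 genes. The study compared LT-HSC libraries from bone marrow of C57BL/6 mice in 2 groups. The 6 wt libraries came from cre-negative mice and the 6 libraries labelled Jak1 KO from cre-positive mice. Mice of both groups had received 4 doses of poly(I:C), a double-stranded RNA mimic that induces type I interferon, 4 to 6 weeks before marrow was taken. The cre driver, the deleted part of Jak1, and the age and sex of the mice are not given, and an effect of cre cannot be told apart from one of the deletion. Sample names fall into 2 sets, VD and ZL, with 3 libraries of each genotype in each. In VD the names begin with MXminus for wt and MXplus for Jak1 KO. What any of the names stand for is not stated.

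PARP enzymes take ADP-ribose from NAD and attach it to proteins. Parp1 and Parp2 build poly(ADP-ribose) chains at DNA breaks, whereas Parp10, Parp12 and Parp14 attach single units, and Parp9 works in a complex with Dtx3l, a Deltex-type ubiquitin ligase. Interferon receptors signal through JAK1, paired with TYK2 for type I interferon or JAK2 for interferon gamma. These kinases activate STAT transcription factors, which with IRF9 bind interferon-stimulated response elements and gamma-activated sites in the promoters of interferon-stimulated genes, among them Parp9, Dtx3l, Parp10, Parp12 and Parp14. LT-HSCs respond to interferon themselves, and repeated exposure can drive them out of dormancy.

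Parp14, Dtx3l and Parp9, 3 of the 5 interferon-linked genes, lie near each other. On mouse chromosome 16 (GRCm38, GENCODE annotation), Parp14 occupies chr16:35832874-35871544 on the minus strand, Dtx3l chr16:35926511-35939151 on the minus strand and Parp9 chr16:35938470-35972605 on the plus strand, a span of 139732 bases. Dtx3l and Parp9 point away from each other and overlap by 682 bases at their starts, of which 458 bases are exonic in both, 8.0% of the exonic bases of Dtx3l and 9.4% of those of Parp9. The strand setting of the counting is not given, so reads from those shared bases cannot be told apart. Parp10 lies at chr15:76231174-76243441 (minus strand, with 205 exonic bases, 4.8% of its own, shared with Plec on the same strand), Parp12 at chr6:39086410-39118349 (minus), Parp1 at chr1:180568924-180601254 (plus) and Parp2 at chr14:50807841-50821301 (plus).

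RefSeq promoter windows (GRCm38.p6, 250 bases before to 50 after the start) were matched for 4 of the 7 genes, namely Dtx3l, Parp12, Parp1 and Parp2. The sequences of 2 interferon-linked genes are shown because their upstream DNA is where STAT and IRF factors would be sought. Capitals mark the tetramer GAAA, the repeated unit of the interferon-stimulated response element, on either strand (TTTC on the other). The first stretch, chr16:35939207-35939277 on the minus strand, is the piece of the Dtx3l window that lies outside the annotated coding-gene exons of both Dtx3l and Parp9. The second is the full upstream part of the Parp12 window, chr6:39118350-39118599 on the minus strand.
Dtx3l: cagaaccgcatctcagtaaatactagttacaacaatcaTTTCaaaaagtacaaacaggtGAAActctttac
Parp12: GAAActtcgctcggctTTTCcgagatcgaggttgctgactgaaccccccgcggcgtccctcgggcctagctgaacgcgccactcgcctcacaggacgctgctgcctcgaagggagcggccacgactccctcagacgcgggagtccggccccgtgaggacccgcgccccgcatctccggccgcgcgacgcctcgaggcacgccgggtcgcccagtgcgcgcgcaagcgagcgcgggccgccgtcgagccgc
The Dtx3l stretch held 2 of the tetramers in 71 bases, and the Parp12 stretch held 2 in 250 bases, both at its far end. Over the full 300-base windows, Dtx3l held 4 tetramers, Parp12 2, Parp1 2 and Parp2 4, around a median of 3 among all 32851 windows, of which 89.2% held at least 1. The response element core (GAAA, any 2 bases, GAAA, on both strands) was found in 0 of the 4 windows, while 3.443% of all windows held it. The gamma-activated site (TTC, any 3 bases, GAA, which reads the same on both strands) was likewise found in 0 of the 4, against 8.298% of all windows. These letters are therefore not in these windows, which says nothing of sites elsewhere or of binding.

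Total counts per library ran from 8989965 to 28701855, and a single gene among the 7 had between 198 and 11956 reads in a library. Levels are given as CPM, read counts scaled to library size with TMM factors. Jak1 itself had 321 to 435 CPM in wt and 246 to 727 CPM in the libraries labelled Jak1 KO, with overlapping groups (edgeR adjusted p = 0.945, log2 fold change 0.18 ± 0.20 SE). Since the deleted part is not known, this count over the whole gene does not check the labels. All 10 LT-HSC markers were detected, at a summed 2056 to 3942 CPM in wt and 1560 to 3933 CPM in Jak1 KO. Jak1 KO 4, Jak1 KO 6 and wt 6, all ZL, stood apart: the rank correlation of a library's deviation from its set with exon length, over 13072 genes, was -0.52, 0.45 and 0.38 in them and -0.27 to 0.22 in the other 9. Summed megakaryocyte markers (5 genes) were 1004 to 1370 CPM in wt and 439 to 742 CPM in Jak1 KO, without overlap. Taken singly, Itga2b was apart (383 to 730 against 130 to 376 CPM), while Pf4, Gp1bb, Vwf and Gp9 overlapped. The share of all genes apart over all libraries was not counted. The log2 fold change was below 0 for 5 of the 5, as for 51.0% of all genes tested, though Gp9 was near 0 (-0.08 ± 0.25 SE). Of the 5, 1 was called lower, Itga2b (log2 fold change -1.08, edgeR adjusted p = 0.0247), against 0.432% of all genes tested. Summed neutrophil and granulocyte progenitor markers were 417 to 1215 CPM in VD and 6.79 to 13.9 CPM in ZL, in both genotypes. Summed B cell (28.2 to 68.5 against 29.3 to 143 CPM), T and NK cell (10.3 to 18.6 against 12.7 to 22.1), monocyte, macrophage and dendritic cell (217 to 502 against 229 to 952) and erythroid markers (45.6 to 93.2 against 29.9 to 80.4, with Hba-a1 at 0) overlapped between wt and Jak1 KO. The part of any of these in the results that follow was not tested.

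The 5 interferon-linked genes all had lower mean levels in the libraries labelled Jak1 KO, with log2 fold changes from -0.84 (Parp9) to -0.42 (Parp10). None of the 7 genes passed edgeR's quasi-likelihood test at an adjusted p of 0.05 over the 12 libraries, where 57 of the 13184 genes, 0.432%, were called lower. At an unadjusted p under 0.05, 4 of the 5 interferon-linked genes (Parp9, Parp14, Dtx3l and Parp10) and 0 of the 2 others were lower, against 2.66% of all genes tested. DESeq2 called 1 of the 7 lower (Parp9), against 0.747% of all genes to which it gave an adjusted p, and limma-voom with sample weights 2 (Parp9 and Parp14), against 1.32%. The median log2 fold change was -0.75 over the 5 interferon-linked genes and -0.01 over all genes tested. These are bulk libraries, in which fewer expressing cells and less RNA per cell cannot be told apart. Nothing states that replicates came from separate mice, so a p-value here reflects only how far these 12 samples scatter, which may be technical.

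**Figure D1:**
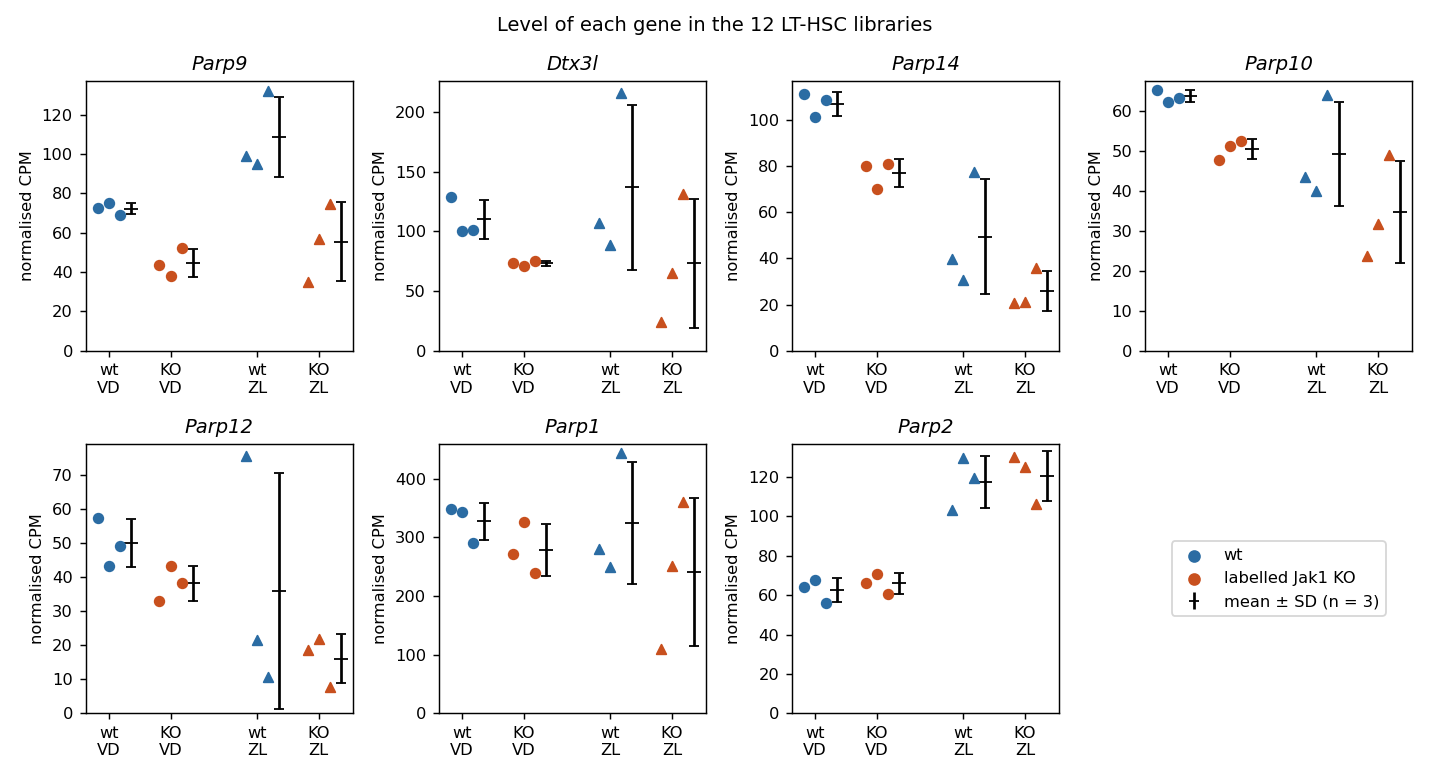
TMM-normalised CPM (vertical axis, from 0) of each gene in the 12 libraries, by genotype and name set (KO stands for labelled Jak1 KO); points are libraries and bars are the mean ± SD of 3. In VD the 5 interferon-linked genes sit lower in all 3 Jak1 KO libraries than in all 3 wt libraries, which in ZL holds for 1 of the 7 genes, Parp9.

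Parp9, which binds ADP-ribose through macrodomains and partners with Dtx3l, had the smallest p of the 7 (rank 73 of all genes tested). Its levels in VD were 72.5, 75.2 and 69.2 CPM in wt 1 to 3 and 43.5, 37.9 and 52.1 CPM in Jak1 KO 1 to 3. In ZL they were 99.0, 95.2 and 132 CPM in wt 4 to 6 and 35.0, 56.7 and 74.7 CPM in Jak1 KO 4 to 6. Every Jak1 KO library lay below every wt library of its own set in both sets, a separation that 0.963% of all genes tested showed. The means were 90.5 ± 23.9 CPM in wt and 50.01 ± 14.7 CPM in Jak1 KO (SD, n = 6 each). The model put Parp9 1.78-fold lower in Jak1 KO (95% interval 1.36 to 2.35; log2 fold change -0.84 ± 0.18 SE, edgeR adjusted p = 0.0836). An exact two-sided permutation of genotype within name sets gave p = 0.005, the smallest its 400 relabelings allow. Without Jak1 KO 4 the log2 fold change was -0.68 and the edgeR adjusted p 0.0230, and leaving out any of the other 11 libraries gave no call. Without Jak1 KO 4, Jak1 KO 6 and wt 6 together it was -0.68 with an edgeR adjusted p of 0.0110. That exclusion was chosen after the data were seen.

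Dtx3l, the ubiquitin ligase that pairs with Parp9, was more variable. It stood at 129, 100.4 and 100.7 CPM in wt 1 to 3 and at 73.3, 71.1 and 74.97 CPM in Jak1 KO 1 to 3. The ZL values were 107, 88.3 and 216 CPM in wt 4 to 6 and 23.8, 64.7 and 131 CPM in Jak1 KO 4 to 6. The VD groups did not overlap, whereas in ZL Jak1 KO 6 exceeded both wt 4 and wt 5. The lowest and the highest of its 12 values belonged to Jak1 KO 4 and wt 6, 2 of the libraries that stood apart. Over all libraries Dtx3l had means of 123 ± 47.2 and 73.1 ± 34.2 CPM (SD, n = 6 each) and a log2 fold change of -0.75 ± 0.32 SE (95% interval -1.44 to -0.05, edgeR adjusted p = 0.910; exact permutation p = 0.045). Leaving out any single library gave no call (lowest edgeR adjusted p = 0.371), and without wt 6 alone the log2 fold change was -0.51. Without the 3 libraries that stood apart, it was -0.55 with an edgeR adjusted p of 0.0284. That exclusion was chosen after the data were seen.

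The ratio of Dtx3l to Parp9 CPM overlapped between genotypes within each set. In VD it ran from 1.34 to 1.77 in wt and from 1.44 to 1.87 in Jak1 KO, and in ZL from 0.928 to 1.63 and from 0.679 to 1.75.

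Parp14, a large mono-ADP-ribosyltransferase known as a cofactor of STAT6, had unlike levels in the name sets. Its VD levels were 111, 101 and 109 CPM in wt 1 to 3 and 80.1, 69.9 and 81.0 CPM in Jak1 KO 1 to 3. Its ZL levels were 39.7, 30.8 and 77.6 CPM in wt 4 to 6 and 20.5, 21.2 and 36.1 CPM in Jak1 KO 4 to 6. Within VD the groups were apart, and within ZL only Jak1 KO 6 overlapped wt, lying above wt 5. The log2 fold change over 12 libraries was -0.70 ± 0.23 SE (95% interval -1.19 to -0.21, edgeR adjusted p = 0.539; exact permutation p = 0.01). Without wt 6 alone it was -0.46 ± 0.17 SE. All 6 VD libraries of Parp14 were above the 5 ZL libraries other than wt 6, and the ratio of Parp14 to Parp9 was 1.35 to 1.84 in VD and 0.324 to 0.587 in ZL. Parp9 itself was not low in ZL, where all 3 wt libraries exceeded all 3 wt libraries of VD. The neutrophil markers given earlier also differ between the sets, and their part in this was not tested.

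Parp10, a mono-ADP-ribosyltransferase that can modify itself and other proteins, showed the smallest difference of the 5. In VD its levels were 65.2, 62.3 and 63.1 CPM in wt 1 to 3 and 47.6, 51.2 and 52.3 CPM in Jak1 KO 1 to 3. In ZL they were 43.4, 39.9 and 64.0 CPM in wt 4 to 6 and 23.6, 31.6 and 48.8 CPM in Jak1 KO 4 to 6. The VD groups were narrow and apart, and in ZL Jak1 KO 6 lay above wt 4 and wt 5. The log2 fold change was -0.42 ± 0.18 SE (95% interval -0.81 to -0.02, edgeR adjusted p = 0.921; exact permutation p = 0.03).

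Parp12, a zinc-finger PARP of the Golgi with antiviral activity, had a wide spread in ZL. Its VD levels were 57.5, 43.4 and 49.3 CPM in wt 1 to 3 and 33.1, 43.2 and 38.3 CPM in Jak1 KO 1 to 3. Its ZL levels were 75.5, 21.7 and 10.6 CPM in wt 4 to 6 and 18.6, 21.9 and 7.89 CPM in Jak1 KO 4 to 6. The VD groups were apart only narrowly, between Jak1 KO 2 and wt 2, and in ZL wt 5 and wt 6 lay within the range of the Jak1 KO libraries while wt 4 lay above all of them. The log2 fold change was -0.77 ± 0.40 SE (95% interval -1.62 to 0.07, edgeR adjusted p = 0.945; exact permutation p = 0.26). Without wt 4 alone it was -0.22 ± 0.27 SE.

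Parp1, the main DNA-break sensor of the family, had 348, 344 and 291 CPM in wt 1 to 3 and 272, 326 and 239 CPM in Jak1 KO 1 to 3. In ZL it had 280.0, 249 and 443 CPM in wt 4 to 6 and 111, 252 and 361 CPM in Jak1 KO 4 to 6. Its genotype groups overlapped in both sets. The means of 326 ± 68.9 and 260.1 ± 86.7 CPM (SD, n = 6 each) gave a log2 fold change of -0.33 ± 0.24 SE (95% interval -0.84 to 0.18, edgeR adjusted p = 0.945; exact permutation p = 0.21). That value moved with single libraries, to -0.14 without Jak1 KO 4, -0.19 without wt 6 and -0.50 without Jak1 KO 6. Parp2, the smaller partner of Parp1 in break repair, had 64.1, 67.5 and 56.1 CPM in wt 1 to 3 and 66.4, 70.9 and 60.5 CPM in Jak1 KO 1 to 3. In ZL it had 103, 129.6 and 119 CPM in wt 4 to 6 and 130.003, 125 and 106 CPM in Jak1 KO 4 to 6. Parp2 overlapped between genotypes in both sets and was higher in every ZL library than in any VD library. Its log2 fold change was 0.06 ± 0.12 SE (95% interval -0.21 to 0.32, edgeR adjusted p = 0.956; exact permutation p = 0.485).

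**Figure D2:**
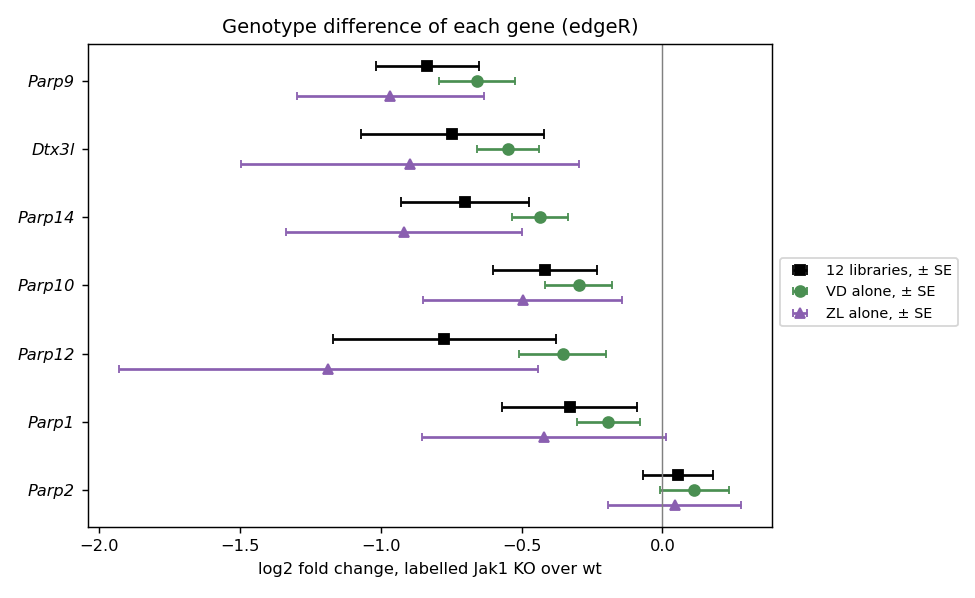
log2 fold change of each gene, labelled Jak1 KO over wt, from edgeR over 12 libraries and within VD and ZL alone (horizontal axis; bars are ± SE). The VD estimates lie nearer to 0 than the ZL estimates for the 5 interferon-linked genes and have the shorter bars; Parp2 lies near 0 in each fit.

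The name sets were fitted separately because they might be separate collections. In VD, 5 of the 5 interferon-linked genes and 0 of the 2 others had every Jak1 KO library below every wt library, against 13.2% of all genes tested. Within VD alone edgeR called 2 of the 7 lower, Parp9 (log2 fold change -0.66 ± 0.14 SE, adjusted p = 0.0268) and Dtx3l (-0.55 ± 0.11 SE, adjusted p = 0.0232), where 0.728% of all genes were called lower. The others had VD log2 fold changes of -0.43 (Parp14, edgeR adjusted p = 0.0543), -0.35 (Parp12), -0.30 (Parp10), -0.19 (Parp1) and 0.11 (Parp2). The 2 VD calls rested on 3 libraries a group: Parp9 kept its call in 2 of the 6 fits that left out 1 VD library (without Jak1 KO 2 or Jak1 KO 3) and Dtx3l in 4 of the 6 (all but those without wt 1 or Jak1 KO 1). In ZL, 1 of the 7 genes, Parp9, was separated, against 2.34% of all genes. ZL log2 fold changes were -1.19 (Parp12), -0.97 (Parp9), -0.92 (Parp14), -0.90 (Dtx3l), -0.50 (Parp10), -0.42 (Parp1) and 0.04 (Parp2), with standard errors of 0.24 to 0.75. The ZL fit called 0 of all 13184 genes, 211 of which had an unadjusted p under 0.05, and of the 7 only Parp9 was among these.

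The genotype effect was not shown to differ between the sets. The interaction term, the ZL effect minus the VD effect, ran from -0.77 (Parp12, SE 0.78) to -0.04 (Parp2, SE 0.26), with edgeR unadjusted p of 0.336 to 0.884 and 0 of the 7 under 0.05. It was called for 0 of all genes tested (0%), 182 of which had an unadjusted p under 0.05. These intervals are wide: without wt 6 the Dtx3l term changed sign to 0.18, and without wt 4 the Parp12 term became 0.39.

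Dividing by a family member in the same library was done as a description. Over Parp2, the ratio of each of the 5 interferon-linked genes was lower in all 3 Jak1 KO than in all 3 wt libraries of VD, and in ZL this held for 1 of 5, Parp9. Parp9 over Parp2 was 1.11 to 1.23 in wt and 0.535 to 0.861 in Jak1 KO of VD, and 0.734 to 1.11 and 0.269 to 0.703 in ZL. Over Parp1, 0 of 5 ratios were apart in either set. All 5 genes in VD, and Parp9 in ZL, were already apart before the division. Parp2 differed little between genotypes (log2 fold change 0.11 in VD and 0.04 in ZL), so the ratios over Parp2 add no separate result. Over Parp2, Dtx3l, Parp14, Parp10 and Parp12 overlapped in ZL. The share of all genes whose ratio to Parp2 was apart was not counted.

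**Figure D3:**
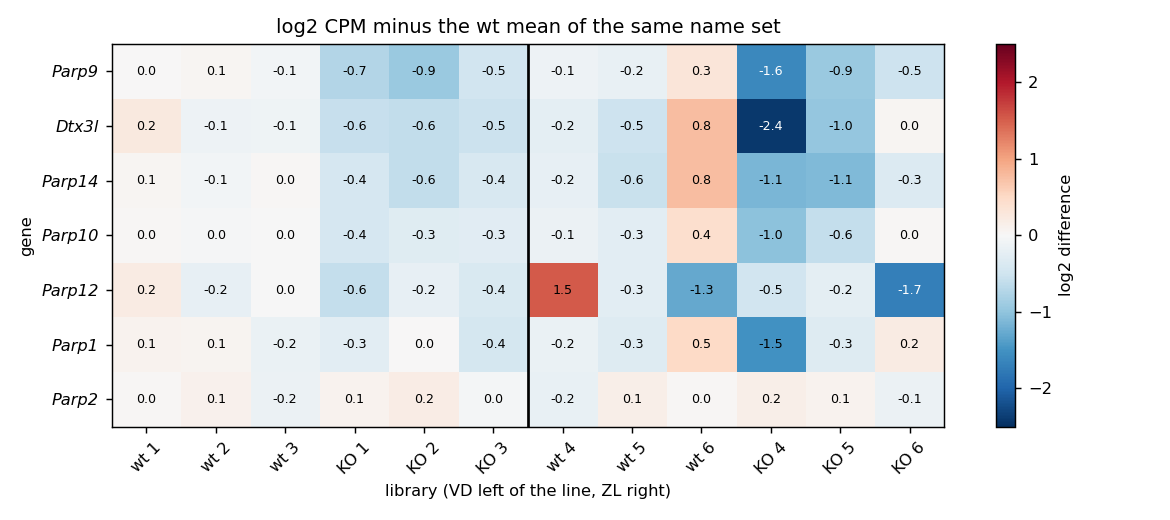
log2 CPM of each gene in each library minus the mean of the 3 wt libraries of the same name set (colour and printed value; rows are genes, columns libraries, VD left and ZL right of the line). Jak1 KO 4 has the lowest value of Parp9, Dtx3l, Parp14, Parp10 and Parp1, and wt 6 has the highest value of the same genes. For Parp14, Jak1 KO 4 and Jak1 KO 5 print alike. Parp12 follows another course, high in wt 4 and low in wt 6 and Jak1 KO 6.

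Among themselves, the genes shared library-to-library patterns to different degrees. The measure was the root mean square difference between 2 genes' log2 CPM over the 12 libraries, each first centred on the wt mean of its set, so that a small value means like profiles. It was 0.24 between Parp14 and Parp10, 0.27 between Parp9 and Parp14 and 0.36 between Parp9 and Dtx3l. Parp10 was also near Parp1 (0.21), so closeness did not follow the division into interferon-linked genes and others. Parp12 stood 0.85 to 1.12 from each of the other 6. Nearest in the whole table (10311 genes with a mean of at least 5 CPM) were F2r (0.16), Tdrd7 (0.17) and Ddx60 (0.18) for Parp9, and Vcl (0.12), Adar (0.14) and Stat2 (0.16) for Dtx3l. For Parp14 they were Parp11 (0.12), Ddx60 (0.19) and Usp40 (0.20), for Parp10 Mov10 (0.06), Hps4 (0.09) and Ddx54 (0.10), and for Parp12 Ctdp1 (0.18), Inpp5a (0.18) and Dnajc21 (0.22). All 15 of these places went to genes with a negative log2 fold change, as 51.0% of all genes tested had. Centring on wt keeps the genotype difference in each profile, so the measure itself favours genes that are lower in Jak1 KO. This count is therefore no separate result. Of the 15, F2r passed the test (-0.98 ± 0.20 SE, edgeR adjusted p = 0.0473).

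Levels of different genes can be compared only per length, here as CPM per kilobase of annotated exon. In wt, Parp1 was highest at 61.5 ± 13.0 (SD, n = 6), and its lowest library, at 47.1, exceeded the highest library of each other gene. Parp2 (24.8 ± 8.65), Dtx3l (21.6 ± 8.25) and Parp9 (18.6 ± 4.90) followed, then Parp10 (13.2 ± 2.68), Parp12 (10.8 ± 5.94) and Parp14 (8.40 ± 3.81). These values pool both name sets, and after Parp1 the library ranges of each neighbouring pair in that order overlapped. Dtx3l and Parp9 changed places when the longest transcript was used as the length. In Jak1 KO the order was Parp1 (49.1 ± 16.4), Parp2 (25.7 ± 8.56), Dtx3l (12.8 ± 5.97), Parp9 (10.3 ± 3.01), Parp10 (9.94 ± 2.79), Parp12 (6.80 ± 3.34) and Parp14 (5.53 ± 3.09) over both sets. The order below Parp1 differed by set: in wt of VD Dtx3l (19.2 ± 2.84, SD, n = 3) lay above Parp2 (17.3 ± 1.61), and Parp10 (14.9 ± 0.354) was level with Parp9 (14.8 ± 0.617). In Jak1 KO of VD, Parp10 (11.8 ± 0.58) and Parp12 (9.56 ± 1.26) lay above Parp9 (9.14 ± 1.46). In ZL both genotypes had the pooled order.

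Irf9, the DNA-binding subunit that STAT factors join at interferon-stimulated response elements, was lower in the libraries labelled Jak1 KO. It averaged 123 ± 36.6 CPM in wt and 47.1 ± 7.43 CPM in Jak1 KO (SD, n = 6 each; edgeR adjusted p = 0.00034, log2 fold change -1.35 ± 0.14 SE). Of 10 genes of interferon receptor signalling described here, edgeR called 1 lower (Irf9), against 0.432% of all genes tested, 0 higher and 9 neither. Their median log2 fold change was -0.23. An unadjusted edgeR p under 0.05 was found for 2 of them, against 5.06% of all genes in either direction. The second was Irf1, another interferon-induced transcription factor, at -0.66 ± 0.14 SE (edgeR adjusted p = 0.0621, named after its value was seen). DESeq2 and limma-voom each called 2 of the 10 lower, Irf9 and Irf1, against 0.747% and 1.32% of all genes with an adjusted p. Irf9 is itself an interferon-stimulated gene, and this list was chosen with results of these data known. The Parp9 difference, at -0.84, was the largest of the 7 and smaller than that of Irf9.

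None of the remaining fixed groups around ADP-ribosylation had a gene past the test by edgeR, DESeq2 or limma-voom. Of all genes tested, 5.06% had an unadjusted edgeR p under 0.05 in either direction. Of 10 other PARP family genes 3 did: Parp16, an endoplasmic reticulum PARP, at 0.62 ± 0.20 SE (adjusted p = 0.521), Zc3hav1, the zinc-finger antiviral protein, at -0.56 ± 0.22 SE (0.838) and Parp11 at -0.57 ± 0.24 SE (0.877, named after its value was seen). The median log2 fold change of the 10 was -0.11, against -0.75 for the 5 interferon-linked genes. The 10 were listed as other family members and were not sorted by interferon response, so they are no set outside it. Among 7 tested genes that remove ADP-ribose, 0 passed and 0 had an unadjusted p under 0.05, with a median of 0.18 and the smallest p for Trpt1 (0.64 ± 0.33 SE) and Oard1 (0.30 ± 0.22 SE). Among 3 tested Deltex ligases other than Dtx3l, 0 passed and 0 had an unadjusted p under 0.05, with a median of 0.06, Dtx4 at 0.47 ± 0.34 SE and Dtx2 at -0.21 ± 0.33 SE. Among 11 tested NAD supply genes 0 passed and 1 had an unadjusted p under 0.05, Nampt, the rate-limiting enzyme of NAD salvage, at -0.42 ± 0.16 SE (edgeR adjusted p = 0.818), with Sirt1, an NAD-consuming deacetylase, at -0.59 ± 0.38 SE and a group median of -0.20. Among 10 partners of Parp1 and Parp2 in break repair 0 passed and 0 had an unadjusted p under 0.05, with a median of 0.01, Tdp1 at -0.27 ± 0.16 SE and Timeless at -0.22 ± 0.14 SE.

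**Figure D4:**
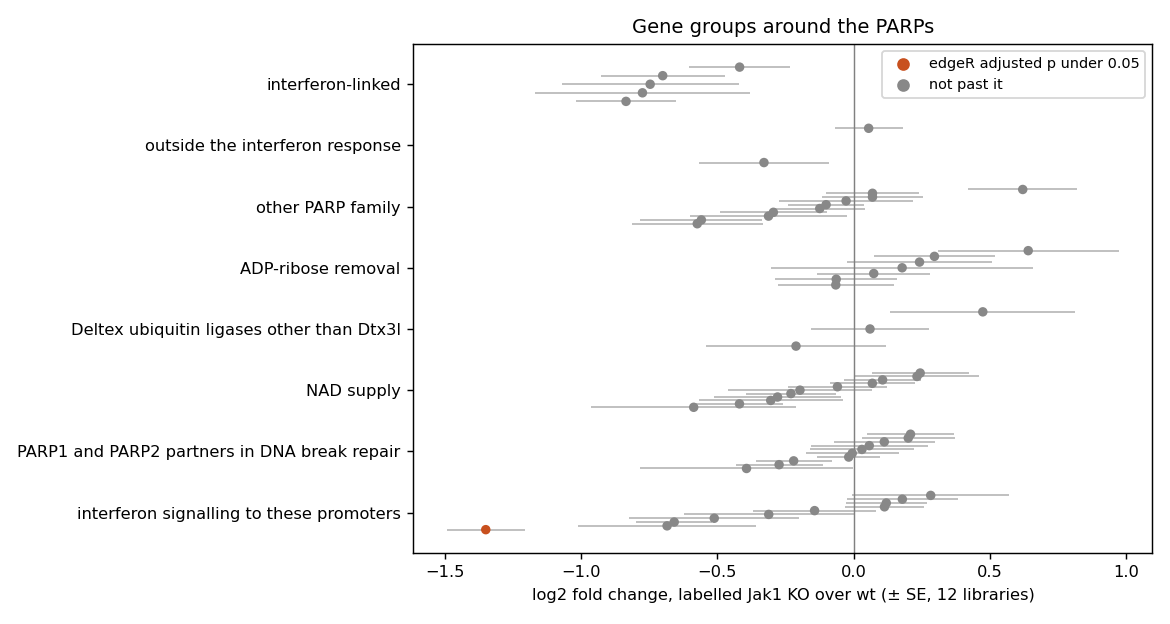
log2 fold change of each gene described, labelled Jak1 KO over wt (horizontal axis, ± SE, 12 libraries), by gene group; orange points passed an edgeR adjusted p of 0.05. Irf9 is the only orange point, and the 5 interferon-linked genes lie between -0.84 and -0.42.

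The genes beside the chromosome 16 cluster lay on both sides of 0. Within 300 kb on either side (a window chosen after results were seen), 6 of 12 genes in the table were tested, 0 passed edgeR's adjusted threshold and 0 had an unadjusted p under 0.05. Their log2 fold changes ran from -0.33 (Kpna1, next to Parp9) to 0.22 (Fam162a), with a median of 0.14, and 2 of the 6 were below 0. Parp14, Dtx3l and Parp9 had -0.70, -0.75 and -0.84.

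**Figure D5:**
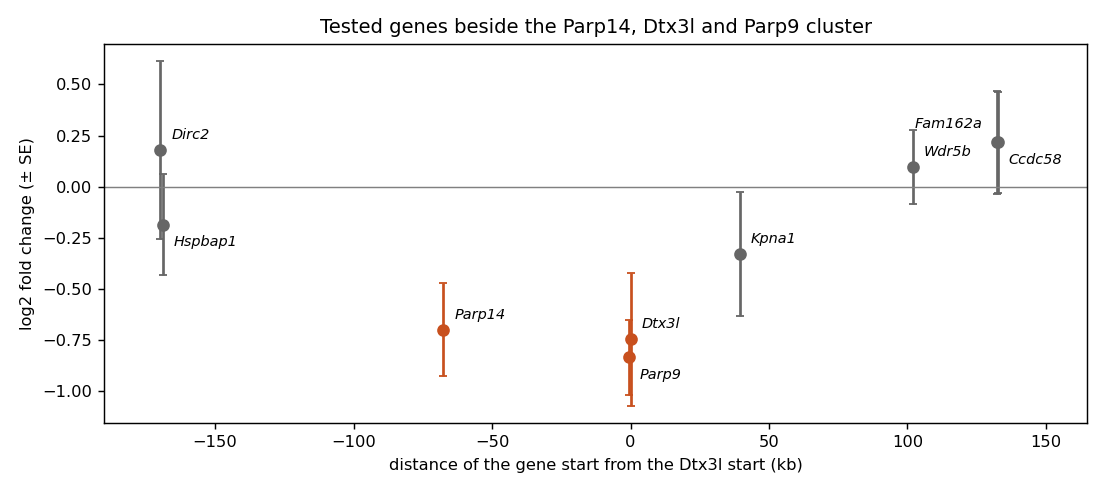
log2 fold change (vertical axis, ± SE, 12 libraries) of the tested genes around the cluster by distance of their start from the Dtx3l start in kb (horizontal axis; orange, Parp14, Dtx3l and Parp9; grey, neighbours). The 3 cluster genes lie lowest, and Kpna1, the nearest tested neighbour on the Parp9 side, has -0.33.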

How the data were processed

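Trizol-extracted RNA went into poly-A TruSeq libraries, per the labels' protocols. The authors deposited a table of unnormalised gene counts, made with STAR 2.3.0e, featureCounts and Subread on mm10, per the submitters' processing notes. Which annotation and strand setting they counted with is not given in the sources used here. Columns were matched to samples by their descriptions and groups came from the titles.

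Genotypes were compared with edgeR 4.0.16 under R 4.3.3 (filterByExpr, TMM, quasi-likelihood F test with a name-set term, Benjamini-Hochberg adjustment over 13184 genes, threshold 0.05), with DESeq2 1.42.0 and limma 3.58.1 as alternatives. CPM use the summed counts of tested genes. Profiles used a prior count of 2. The steps were tested on simulated data. The members and gene lists were chosen with earlier results of these data known. Named were Jak1, the 7 members, each list's genes past the threshold (or, with none, the 2 of smallest p) and the 3 nearest profiles of each interferon-linked gene. Exon lengths came from GENCODE vM21 and promoters from RefSeq GRCm38.p6. From the interferon signalling list 1 gene is not reported here.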

Additional observations from a re-analysis of the deposited data

Results flagged for a closer look

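Dtx3l in wt 6, at 216 CPM, stood far above the other 5 wt libraries (88.3 to 129 CPM). Its gap to the next library was 0.683 of the whole range of the group, above Dixon's critical value for 6 samples at the 95% level. It was the only one of 14 gene-by-genotype groups to pass, and chance passes about 1 in 20. Without wt 6 the log2 fold change of Dtx3l was -0.51 in place of -0.75.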

How the results depend on the processing

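All 7 genes kept the direction of their log2 fold change in 26 of 26 alternatives. Parp9 passed in 8 of the 26, Dtx3l in 2, Parp14 in 1 and the other 4 genes in 0. For Parp9, 1 of these was the unchanged main fit read at an adjusted p of 0.1. The count of members called lower, 0 of 7, became 1 with DESeq2, 2 with limma-voom sample weights, 1 with a replicate block, 2 in VD alone, 1 at an adjusted p of 0.1, 2 without the 3 libraries that stood apart, 1 with an offset for exon length (the last 2 chosen after seeing the data) and 0 to 1 when each library was left out. The count of 4 members at an unadjusted p under 0.05 became 2 with upper quartile factors, 2 with no name-set term, 1 in ZL alone, 5 in VD alone, 5 with limma-voom, 6 with the replicate block (Parp1 and Parp12 added, each lower) and 2 to 4 when each library was left out (2 without wt 1, Jak1 KO 1, 2, 3 or 5). All genes under that unadjusted p were counted only in the main fit (5.06%, either direction) and in ZL alone (211 of 13184 genes). The member counts in the other alternatives thus have no share of all genes beside them, and whether they exceed it is not known. The 57 genes called lower became 98 with DESeq2, 174 with limma-voom, 14 with no name-set term, 96 in VD alone, 0 in ZL alone and 88 without the 3 libraries. The 2 VD calls became 0 to 2 when each VD library was left out (0 without wt 1 or Jak1 KO 1, 1 without wt 2 or wt 3), an alternative chosen after seeing the data. The interaction term changed sign for Parp2 with DESeq2's size factors (0.052). When each library was left out it ran from -1.04 to 0.18 for Dtx3l, from -0.77 to 0.034 for Parp14, from -0.49 to 0.072 for Parp10, from -1.20 to 0.39 for Parp12, from -0.61 to 0.12 for Parp1 and from -0.12 to 0.044 for Parp2. Except for these constructions with fewer samples, the cause was not tested. Same-numbered libraries were not treated as pairs in the main fit. Their deviations correlated at 0.04 to 0.67, under 0.1 for numbers 1 and 5, and 6 of 12 correlated best with their own number. These values do not settle whether the libraries are pairs. With the number as a replicate block, 70 genes were called lower and Parp9 had -0.87 (edgeR adjusted p = 0.0367).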
